A study of Mus musculus with 2 samples.

Results

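The genes described here are 8 members of the Ly6 and Psca family of surface proteins, namely Psca, Ly6a, Ly6d, Ly6e, Ly6g6c, Ly6c1, Lypd3 and Lypd2. They were taken by symbol from the 31053 gene identifiers in the single-cell count tables of mouse bladder organoids, and all 8 were found in both libraries. Their levels were read in 6818 cells of proliferative organoids (P) and 4896 cells of differentiated organoids (D), which are the cells with more than 800 detected genes and no more than 12% mitochondrial transcripts.

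Organoids of normal urothelium, the lining epithelium of the bladder, were grown in Matrigel from wild-type C57BL/6 mice aged 8 to 10 weeks. P organoids stayed in complete medium, which supplied EGF, WNT3A, RSPO1, Noggin and the TGF-β receptor inhibitor LY2157299. D organoids came from the same kind of culture and were transferred to a medium without these 5 factors, in which they were left for a further week. Cells of both cultures were released with enzymes and, without sorting, each culture became 1 droplet library (10x Genomics 3′ chemistry). Each condition therefore had 1 library, a difference between P and D has no replicate check, and no test was made. Intervals given below are exact 95% intervals and cover counting error only.

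Proteins of this family share a compact domain whose loops are held by disulfide bonds between conserved cysteines, and most are tethered to the outer leaflet of the plasma membrane by a glycosylphosphatidylinositol (GPI) anchor. Several mark stages of epithelial or blood cell maturation. PSCA (prostate stem cell antigen) is made by urothelium and prostate and is studied as a tumour antigen, LY6A (Sca-1) is the classical mouse stem cell surface marker, LY6D is found on squamous epithelium and on lymphoid precursors, and LYPD3 (C4.4A) is a protein of suprabasal squamous cells. LY6C1 is better known from endothelial cells and monocytes, LY6E from thymocytes and virus entry, and Ly6g6c lies in the class III region of the major histocompatibility complex.

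The first 300 coding bases of Psca and Ly6d are shown because these genes held most of the UMIs (unique molecular identifiers, 1 for each RNA molecule counted) of the family. They were read from the GENCODE M21 transcripts of build GRCm38. Capitals mark the in-frame codons TGT and TGC, which encode cysteine.
Psca: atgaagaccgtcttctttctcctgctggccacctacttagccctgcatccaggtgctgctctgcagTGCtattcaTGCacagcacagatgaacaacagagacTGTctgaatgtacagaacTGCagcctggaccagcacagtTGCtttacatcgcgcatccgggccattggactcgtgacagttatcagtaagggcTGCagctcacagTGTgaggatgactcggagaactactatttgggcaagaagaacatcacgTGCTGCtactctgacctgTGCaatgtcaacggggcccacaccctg
Ly6d: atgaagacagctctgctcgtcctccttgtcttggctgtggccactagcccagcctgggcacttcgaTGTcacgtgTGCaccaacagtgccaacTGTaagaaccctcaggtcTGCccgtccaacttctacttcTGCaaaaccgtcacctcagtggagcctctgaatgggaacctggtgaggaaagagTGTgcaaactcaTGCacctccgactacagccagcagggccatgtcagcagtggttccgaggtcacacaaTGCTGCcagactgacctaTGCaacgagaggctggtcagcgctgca
Over their whole length Psca had 11 cysteine codons among 123 codons and Ly6d 11 among 127, 10 and 10 of them in the stretch shown, and the other 6 genes had between 10 and 19. The longest run of bases that both coding sequences shared was 9. The closest pair was Ly6a and Ly6c1, whose coding sequences shared an uninterrupted run of 45 bases. This run is given here because it was the longest shared by any pair of coding sequences among the genes described. The transcripts of Ly6a and Ly6c1 also shared longer stretches, as the 50-base words below show.
Ly6a bases 37 to 81, also in Ly6c1: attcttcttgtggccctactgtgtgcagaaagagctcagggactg
Of all 50-base words in the transcripts of Ly6a, 19.0% were also found in another gene, and of those of Ly6c1 32.8%, mostly in Ly6c2, Ly6a and Ly6i. The other 6 genes shared no such word. The counts of Ly6a and Ly6c1 are therefore less certain, since a read from a shared stretch can be dropped or given to a relative.

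On GRCm38, 6 of the 8 genes lie within 334 kb of chromosome 15, a span that also holds other annotated genes to a total of 27. In order along the chromosome these are Psca (chr15:74714839-74717069, plus strand), Lypd2 (chr15:74732247-74734329, minus strand), Ly6d (chr15:74762056-74763620, minus strand), Ly6e (chr15:74955051-74959905, plus strand), Ly6a (chr15:74994877-74998031, minus strand) and Ly6c1 (chr15:75044018-75048830, minus strand). Lypd3 lies apart at chr7:24636550-24641118 on the plus strand and overlaps the antisense gene Gm26550. Ly6g6c lies at chr17:35065388-35070050 on the plus strand and overlaps Mpig6b on the opposite strand. Both partners lie on the opposite strand. Their reads could mix with those of Lypd3 and Ly6g6c only within the overlaps and only if the counting ignored the strand. This was not examined. All 8 are protein-coding genes, and Psca and Ly6d each have 1 annotated transcript with 3 exons.

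Cells were assigned to states with marker genes that include no family member. Uroplakin-positive cells held at least 2 UMIs of the 5 uroplakin genes, which encode the plaques of umbrella cells. The others were scored on 9 basal genes, including Krt5, Krt14 and Trp63, and on 12 squamous genes, including Sprr1a, Ivl and Flg, and were divided at the upper tercile of each score over both libraries (1.496 and 0.228, as the mean of the natural log of 1 + UMIs per 10000). This gave 1622 high-basal, 1811 high-squamous, 138 high-for-both, 3154 low-for-both and 93 uroplakin-positive cells in P. In D it gave 1430, 287, 310, 688 and 2181 cells in the same order. These states are ranges of a score and not separate types, since 1547 cells of P and 1254 of D lay within 10% of the basal cut.

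The markers show how far the names can be taken. In P the high-squamous cells carried the late cornification gene Flg at 573 CPM (UMIs per 1000000 UMIs), whereas all kept cells of D together held 1 Flg UMI and 2 UMIs of Cnfn. In D a high squamous score rested on Sprr1a (959 CPM), Ivl (394 CPM) and Sbsn (183 CPM), so the same name covers unlike cells in P and D. Of the 93 uroplakin-positive cells of P, 79 were also above the squamous cut, and the Sprr2f level over all 93 was 652 CPM against 2.31 CPM in the uroplakin-positive cells of D. Krt15, on the basal list, was lower in high-basal cells of D (5730 CPM) than in its uroplakin-positive cells (7733 CPM).

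Depth was 26681469 UMIs over the kept cells of P and 20305621 over those of D, and the median cell had 3405.5 and 3227.5 UMIs. Ribosomal protein genes took 36.7% of the UMIs in P and 20.9% in D, and the median log2 ratio of D over P was 0.42 over the 8939 genes that reached 100 UMIs in P and in D. Ratios are given as CPM ratios, and also with the median ratio of the contrast set to 0 where this changes a 2-fold call or a direction. Markers of other cell types were scarce. The 7 endothelial genes summed to 5.51 CPM in P and 3.40 in D. These were mostly Egfl7 (78 and 17 UMIs) and Pecam1 (60 and 50 UMIs), with Cdh5, Kdr, Cldn5 and Tek at 0 in both. The 9 leukocyte genes summed to 1.27 and 20.3 CPM (400 of 412 UMIs in D were Laptm5), with Tyrobp and Cd3e at 0 in both. The 6 fibroblast genes summed to 1.99 and 62.5 CPM (1234 of 1270 UMIs in D were Dcn). The part of these markers in the results was not tested. The libraries shared 10 barcodes, of which 6 were among the kept cells.

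Over all kept cells, Ly6d and Psca dominated the family. Its 8 genes together made up 0.629% of UMIs in P and 0.943% in D, and Ly6d with Psca accounted for 83.4% and 91.8% of these. Ly6d was counted 89958 times in P and 140455 times in D, or 3372 and 6917 CPM, and moved from rank 70 to rank 11 among all genes. Psca stood at 50033 UMIs (1875 CPM, rank 96) in P and 35376 UMIs (1742 CPM, rank 92) in D. Its rank rose while its CPM fell, so ranks also depend on the levels of other genes. The remaining genes were in a lower range, from Ly6a with 587 and 306 CPM, Ly6e with 325 and 369 CPM and Lypd3 with 115 and 74.5 CPM down to Ly6c1 with 6.67 and 0.492 CPM, Ly6g6c with 5.25 and 17.4 CPM and Lypd2 with 3.64 and 2.46 CPM. In a 3′ assay each transcript is tagged near its end, so these levels need no correction for transcript length.

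All 8 genes reached the minimum of 100 UMIs over both libraries. For 2 of them the level in D was at least 2-fold that in P, a rule that 13.5% of all 10719 such genes met. They were Ly6d, with a log2 ratio of D over P of 1.04 (1.02 to 1.05), and Ly6g6c, with 1.73 (1.44 to 2.02). With the median ratio set to 0 the ratio of Ly6d was 0.61, below 2-fold, and that of Ly6g6c 1.31. In the other direction 1 gene, Ly6c1, was at least 2-fold lower in D (log2 ratio −3.76, −4.84 to −2.85), against a background of 4.73%. It reached 100 UMIs through P alone (178 UMIs), the library where it was high, so this count is no support. Ly6a was just under 2-fold lower at −0.94 (−0.98 to −0.90) and passed 2-fold once the median was set to 0 (−1.36), as did Lypd3 (−0.62, −0.71 to −0.53, then −1.04). Psca gave −0.11 (−0.13 to −0.09, then −0.53), and Ly6e was the 1 gene whose direction turned, from 0.18 (0.14 to 0.23) to −0.24. Lypd2 rested on 97 and 50 UMIs and gave −0.56 (−1.08 to −0.06).

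**Figure D1:**
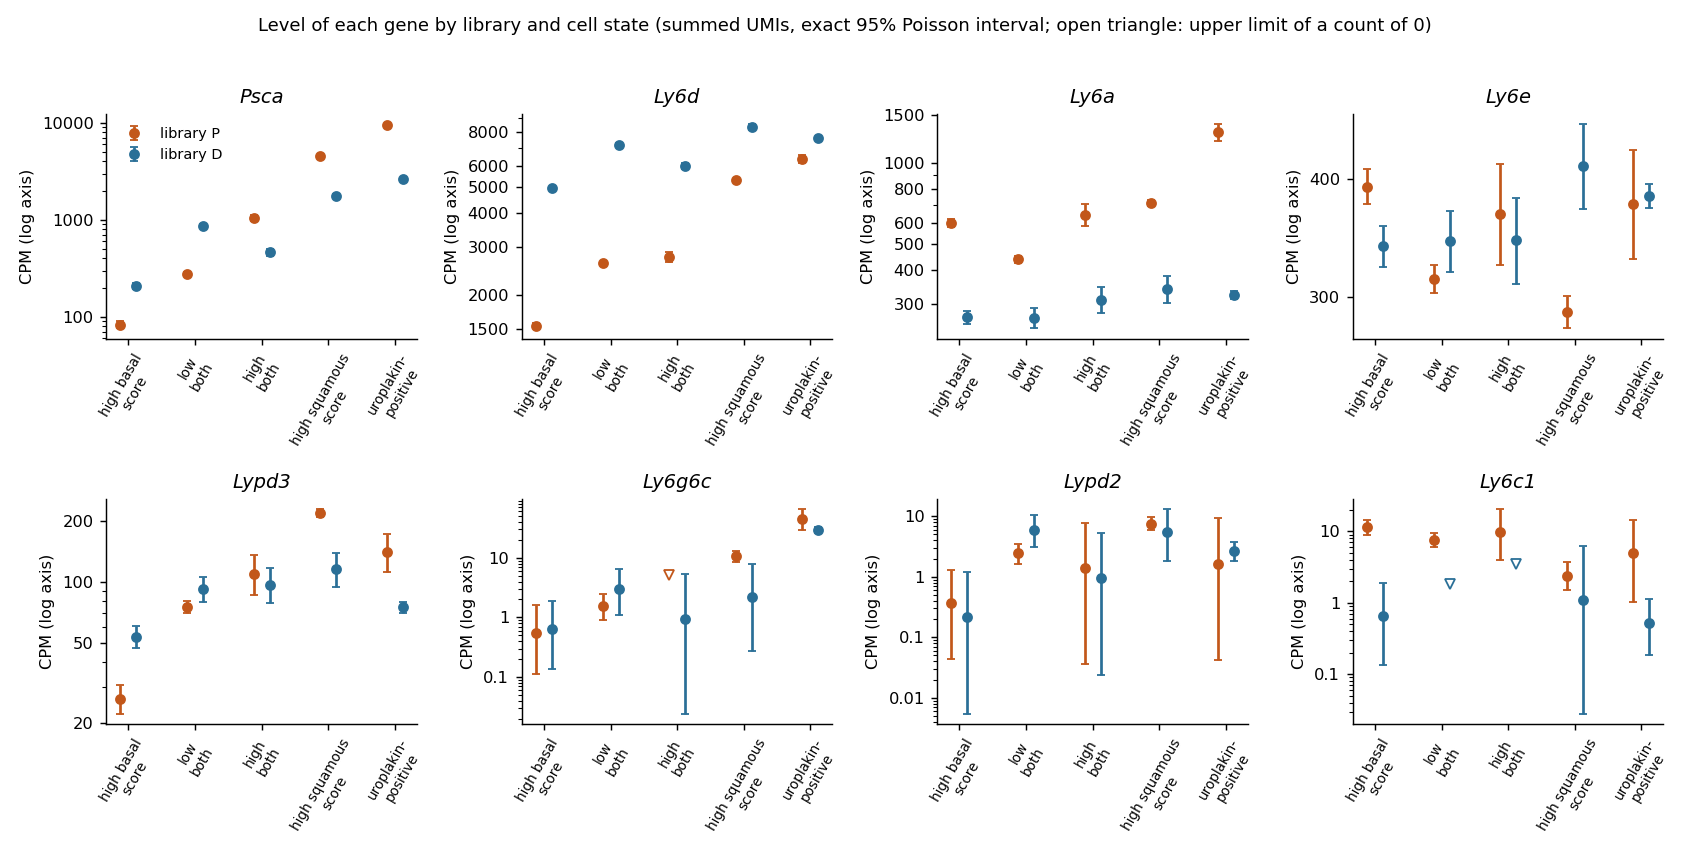
Level of each of the 8 genes (CPM of summed UMIs, log axis) in the 5 cell states of P and D, with exact 95% Poisson intervals. Psca runs from 83.5 CPM in high-basal cells to 9404 CPM in uroplakin-positive cells of P, and Ly6e stays between 289 and 413 CPM in every state of both libraries.

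To learn which cells carried the family, levels were compared between states within each library. Among the 5 genes with at least 100 UMIs in the high-squamous and high-basal cells of P, 3 (Psca, Ly6d and Lypd3) were at least 2-fold higher in high-squamous cells, where 7.05% of 7988 genes were. In D these were 2 of 5 genes (Psca and Lypd3), beside 2.3% of 5996 genes. Uroplakin-positive cells of P exceeded high-basal cells at least 2-fold for 4 of 5 genes (Psca, Ly6a, Ly6d and Lypd3; background 7.51%). Of these, Ly6a (log2 ratio 1.11) was below 2-fold with the median ratio of the contrast set to 0 (0.84). In D they exceeded them for 2 of 6 genes (Psca and Ly6g6c; background 5.27%). Of these, Ly6g6c reached the minimum of UMIs through the uroplakin-positive cells alone, so its call is no support. No gene of the family with enough UMIs was at least 2-fold lower than in high-basal cells in any of these contrasts, in which 11.3%, 6.14%, 14.9% and 4.61% of genes were lower (in P for high-squamous cells, in D for high-squamous cells, in P for uroplakin-positive cells and in D for uroplakin-positive cells).

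Psca marked the squamous and uroplakin side of both cultures. In P its level was 83.5 CPM (76.0 to 91.5) in high-basal, 277 CPM in low-for-both, 1035 CPM in high-for-both, 4588 CPM (4543 to 4633) in high-squamous and 9404 CPM (9162 to 9652) in uroplakin-positive cells. In D the levels in the same order were 209 CPM (196 to 222), 870, 462, 1744 (1659 to 1833) and 2616 CPM (2586 to 2645). High-basal cells were lowest and uroplakin-positive cells highest in each library, and in D the low-for-both cells stood above those high for both. The excess of high-squamous over high-basal cells was 55.0-fold in P (log2 ratio 5.78, 5.65 to 5.92) and 8.36-fold in D (3.06, 2.95 to 3.18), and that of uroplakin-positive over high-basal cells was 113-fold in P (6.82, 6.68 to 6.96) and 12.5-fold in D (3.65, 3.56 to 3.74). The difference between these folds was not tested.

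The similar Psca totals of P and D therefore lay in different states. In P, 80.1% of all Psca UMIs lay in high-squamous cells and 11.4% in the 93 uroplakin-positive cells. In D, 86.5% lay in uroplakin-positive cells and 4.45% in high-squamous cells. This split follows from assigning uroplakin-positive cells first, since 1280 of these 2181 cells of D were also above the squamous cut. Those 1280 cells held 24229 of the 35376 Psca UMIs of D, and uroplakin-negative cells above the cut held 2056. In P the corresponding counts were 5550 and 40796 of 50033. Cells above the squamous cut thus held most Psca UMIs in both libraries. High-basal cells held 0.921% in P and 2.73% in D, although they made up 23.8% and 29.2% of the cells. When the state levels of P were combined with the state proportions of D (by their share of UMIs), the sum came to 5720 CPM, and when those of D were combined with the proportions of P it was 1048 CPM. Both lie far from the 1875 and 1742 CPM measured.

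**Figure D2:**
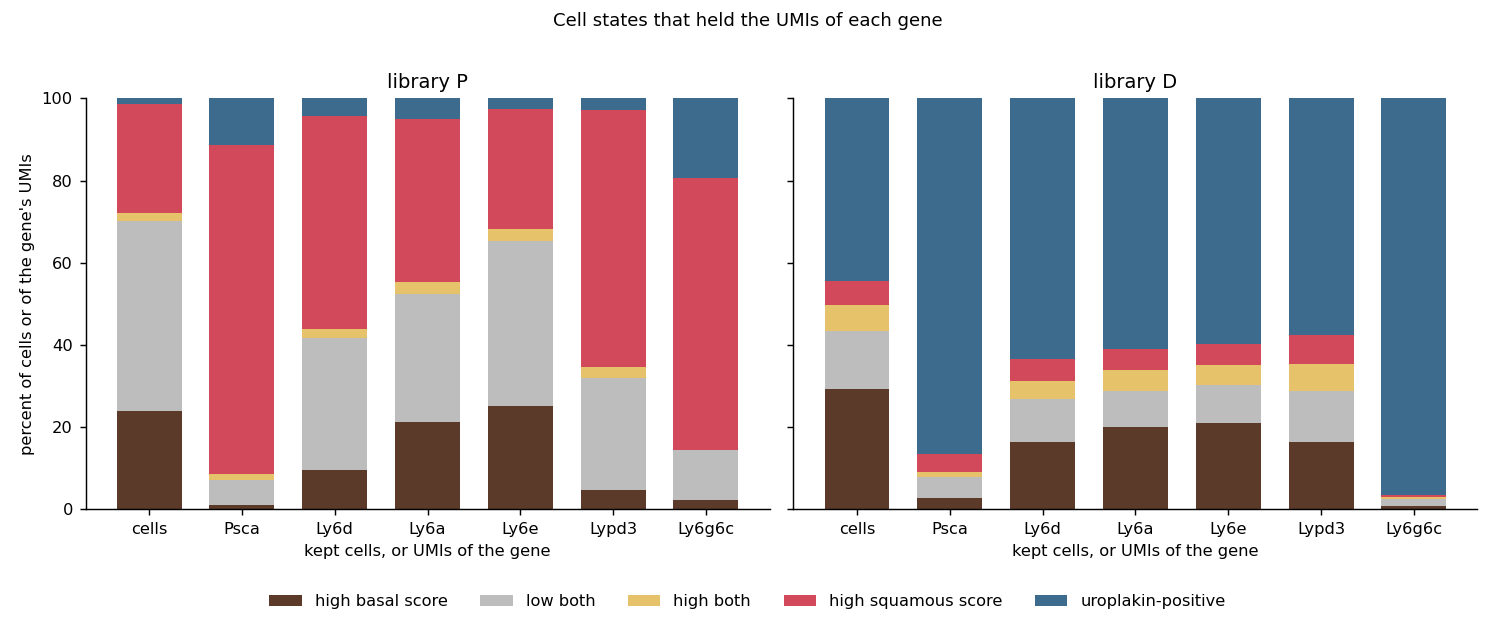
Percent of kept cells and percent of each gene's UMIs (vertical axis, 0 to 100) in the 5 cell states, for P (left) and D (right). High-squamous cells of P hold 80.1% of Psca UMIs and 62.6% of Lypd3 UMIs, whereas uroplakin-positive cells of D hold 86.5% of Psca UMIs and 96.6% of Ly6g6c UMIs.

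Within states the ratio of D over P for Psca pointed in opposite directions. Psca was higher in D in high-basal cells (log2 ratio 1.32, 1.16 to 1.48) and in low-for-both cells (1.65, 1.57 to 1.74). It was lower in D in high-for-both cells (−1.16, −1.33 to −0.997), in high-squamous cells (−1.40, −1.47 to −1.32) and in uroplakin-positive cells (−1.85, −1.89 to −1.81). Each direction held with the median ratio of all genes in that state set to 0, where the values ranged from −1.75 in uroplakin-positive cells to 1.16 in low-for-both cells. The span of Psca between the lowest and the highest state was thus narrower in D. The states were not matched on score between the libraries. The median squamous score in P and D was 0 and 0.063 in high-basal, 0 and 0.115 in low-for-both and 0.289 and 0.291 in high-for-both cells. It was 0.441 and 0.317 in high-squamous and 0.506 and 0.260 in uroplakin-positive cells. The part of these scores in the ratios was not tested.

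Across the family, 3 of 5 genes with enough UMIs were at least 2-fold higher in D in high-basal cells (Psca, Ly6d and Lypd3; background 12%) and 1 was lower (Ly6a; background 3.74%). With the median ratio set to 0, Ly6d (1.34) stayed past 2-fold there while Psca (0.97) and Lypd3 (0.67) did not. In low-for-both cells 2 of 5 were higher (Psca and Ly6d; background 12%) and 0 lower (background 3.88%), and with the median set to 0 Ly6d (0.96) no longer passed while Ly6a did, as lower (−1.22). In high-squamous cells 2 of 5 were lower (Psca and Ly6a; background 4.68%), and 0 were higher (background 13%). In uroplakin-positive cells the same pair was lower, as 2 of 6 (background 2.87%), and 0 were higher (background 20.2%). In cells high for both, 1 of 5 was higher (Ly6d; background 13.1%) and 2 were lower (Psca and Ly6a; background 2.51%).

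**Figure D3:**
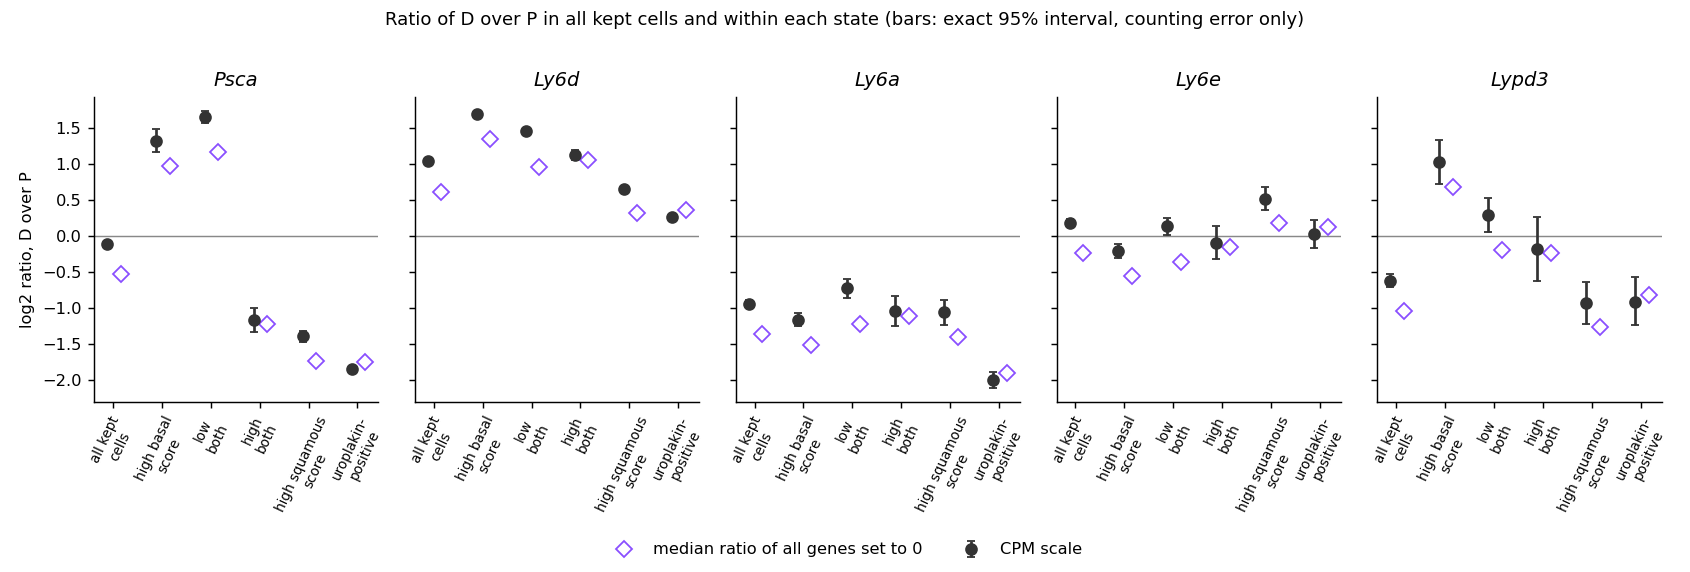
Log2 ratio of D over P for 5 genes in all kept cells and in each state, on the CPM scale (filled, exact 95% interval) and with the median ratio of all genes set to 0 (open). Psca lies at −0.11 over all cells but between 1.65 and −1.85 by state, Ly6d lies above 0 and Ly6a below 0 in every state.

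Psca was concentrated in few cells of P. The tenth of cells with most Psca UMIs (682 cells) held 80.2% of them in P, and the corresponding 490 cells held 58.4% in D. The highest counts in a single cell were 375 UMIs in P and 198 in D, while 58.2% of cells in P and 36.3% in D had none. Above 50 Psca UMIs per 10000 were 57.0% of uroplakin-positive and 26.4% of high-squamous cells of P, 12.2% and 7.67% of those of D, and 0.0617% of high-basal cells in P and 0.0699% in D. Above 5 UMIs per 10000 were 1.60% of high-basal cells in P and 9.72% in D.

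**Figure D4:**
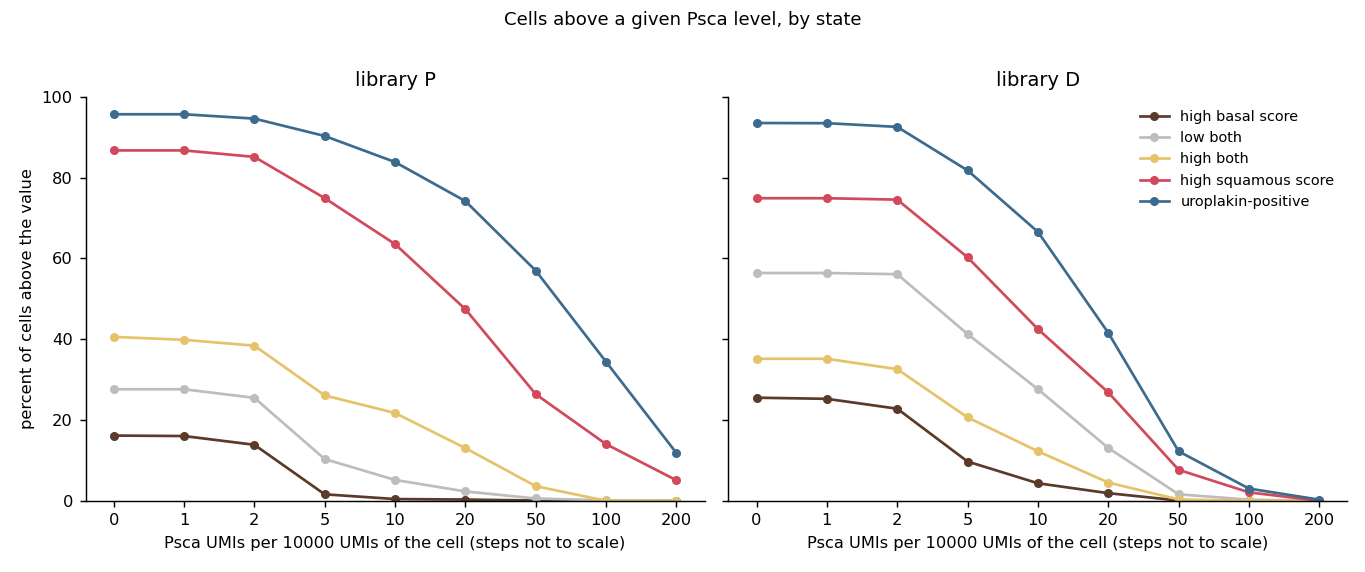
Percent of cells (vertical axis) above a given number of Psca UMIs per 10000 UMIs of the cell (horizontal axis, steps not to scale), by state, in P (left) and D (right). Uroplakin-positive cells lie highest in both libraries, and in P 34.4% of them exceed 100 UMIs per 10000 against 3.03% in D.

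After each cell was thinned to 2100 UMIs, which left out 180 shallower cells of P and 479 of D, 35.9% of cells in P (34.7 to 37.1%) and 60.6% in D (59.2 to 62.1%) had a Psca UMI, against 41.8% and 63.7% before thinning. By state the thinned shares in P were 10.4% (160 of 1543) in high-basal, 80.2% in high-squamous and 94.6% in uroplakin-positive cells, and in D 19.7% (233 of 1181), 71.3% and 87.1%. Before thinning the median depths were 3050 UMIs in high-basal, 4121 in high-squamous and 5224 in uroplakin-positive cells of P, and 2731, 2876 and 4025 in D. No cell type sure to lack Psca was present, so transcripts that float free between droplets could not be measured apart. The share in high-basal cells may hold both such transcripts and Psca made in these cells. Single high-basal cells held up to 63 Psca UMIs in P and 60 in D. How far free transcripts enter the ratio of D over P in high-basal cells was not tested. The number of Psca UMIs per Ly6d UMI was 0.0544 in high-basal, 0.860 in high-squamous and 1.48 in uroplakin-positive cells of P, and 0.0420, 0.209 and 0.343 in D, so the counts of this pair did not keep 1 ratio across states.

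Ly6d was detected almost everywhere and was the more evenly spread of the abundant pair. In P it stood at 1534 CPM (1502 to 1567) in high-basal, 2616 in low-for-both, 2766 in high-for-both, 5337 in high-squamous and 6359 CPM (6159 to 6563) in uroplakin-positive cells. In D the levels were 4965 (4901 to 5030), 7150, 6005, 8359 (8171 to 8550) and 7621 CPM (7571 to 7671). The lowest state of D was above the high-basal, low-for-both and high-for-both cells of P. High-squamous over high-basal cells had log2 ratios of 1.80 in P (1.76 to 1.83) and 0.75 in D (0.71 to 0.79), and uroplakin-positive over high-basal cells had 2.05 and 0.62.

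D exceeded P for Ly6d in all 5 states, from 1.69 (1.66 to 1.73) in high-basal and 1.45 in low-for-both cells through 1.12 in high-for-both and 0.65 in high-squamous cells to 0.26 (0.21 to 0.31) in uroplakin-positive cells. With the median ratio set to 0 the values ranged from 0.31 to 1.34. A UMI of Ly6d was found in 94.0% of thinned cells of P and 99.7% of D, and in high-basal cells in 88.7% and 99.3%. The median cell of P had 23.5 Ly6d UMIs per 10000 and the median cell of D 60.8.

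Lypd3 followed the squamous score in P and was flatter in D. In P it was at 26.3 CPM (22.2 to 30.9) in high-basal, 75.1 in low-for-both, 109 in high-for-both, 219 (209 to 229) in high-squamous and 140 CPM (112 to 173) in uroplakin-positive cells. In D it was at 53.5 (47.1 to 60.6), 92.1, 96.6, 115 (94.2 to 140) and 74.7 CPM (69.8 to 79.8). Unlike Psca, Lypd3 was lower in uroplakin-positive than in high-squamous cells, with log2 ratios of −0.64 in P (−0.97 to −0.33) and −0.63 in D (−0.92 to −0.32). Squamous over basal, the ratio was 3.06 (2.82 to 3.32) in P and 1.11 (0.76 to 1.44) in D.

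Between the libraries, Lypd3 was higher in D in high-basal cells (1.03, 0.73 to 1.33, and 0.67 with the median set to 0) and lower in high-squamous (−0.93, −1.23 to −0.64, and −1.26 with the median set to 0, past 2-fold) and uroplakin-positive cells (−0.91, −1.23 to −0.57). In low-for-both cells the sign depended on scaling, with 0.30 on the CPM scale and −0.20 with the median set to 0. A Lypd3 UMI was present in 34.7% of thinned high-squamous cells of P and 4.54% of its high-basal cells, against 21.8% and 10.2% in D. Lypd2 was too scarce for ratios within states. Of its 97 UMIs in P, 66 were in high-squamous cells (7.56 CPM, 5.85 to 9.62) and 2 in high-basal cells (0.362 CPM). Of its 50 UMIs in D, 31 were in uroplakin-positive cells (2.65 CPM) and 12 in low-for-both cells (5.91 CPM, 3.06 to 10.3).

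Ly6a was lower in D in all 5 states. In P it stood at 601 CPM (580 to 621) in high-basal, 440 in low-for-both, 642 in high-for-both, 711 (693 to 729) in high-squamous and 1294 CPM (1205 to 1388) in uroplakin-positive cells. In D it was at 269 (254 to 284), 266, 312, 340 (303 to 381) and 325 CPM (315 to 335). The highest state of D was below the lowest of P. Uroplakin-positive cells were the highest state of P, whereas the states of D spanned 266 to 340 CPM. The ratio of D over P was −0.73 in low-for-both cells (−1.22 with the median set to 0, past 2-fold), between −1.04 and −1.16 in the 3 states high for 1 or both scores, and −1.99 (−2.11 to −1.88) in uroplakin-positive cells. A Ly6a UMI was found in 59.5% (58.3 to 60.7%) of thinned cells of P and 38.1% (36.6 to 39.5%) of D.

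Ly6c1, which follows Ly6a in the order above and shares sequence with it, was found mostly in P, with 178 UMIs there and 10 in D. All its counts within P were small, with 63 UMIs (11.4 CPM, 8.77 to 14.6) in high-basal, 84 (7.56 CPM) in low-for-both and 21 (2.41 CPM, 1.49 to 3.68) in high-squamous cells. No cell held more than 4 of its UMIs. Of the endothelial genes, Cdh5, Kdr, Cldn5 and Tek were at 0 in both libraries. Egfl7 had 78 UMIs in P and 17 in D, Pecam1 60 and 50, and Vwf 9 and 2. Within P, Egfl7 was at 7.24 CPM in high-basal and 0.802 CPM in high-squamous cells. Of the leukocyte genes, Ptprc had 1 UMI in P and 2 in D, and Lyz2 16 and 8. The part of such cells in the Ly6c1 counts was not tested. The relative Ly6c2 had 2 UMIs in P.

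Ly6e varied least of the 5 genes with over 1000 UMIs. Its levels in P were 392 CPM (376 to 409) in high-basal, 313 in low-for-both, 367 in high-for-both, 289 (278 to 300) in high-squamous and 376 CPM (329 to 429) in uroplakin-positive cells. In D they were 339 (323 to 357), 343, 344, 413 (372 to 457) and 383 CPM (372 to 395). High-squamous cells were the lowest state of P and the highest of D, with a log2 ratio over high-basal cells of −0.44 (−0.52 to −0.36) and 0.28 (0.11 to 0.45). Their rank over uroplakin-positive cells in D lay within counting error (uroplakin-positive over high-squamous −0.11, −0.26 to 0.05). On the CPM scale the largest ratio of D over P in a state was 0.51 (0.35 to 0.67), in high-squamous cells, and 0.18 with the median set to 0. In low-for-both cells the direction turned with scaling, from 0.13 to −0.36. A Ly6e UMI was found in 44.9% of thinned cells in P and 48.3% in D.

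Ly6g6c was rare, and nearly all of its UMIs in D lay in a single state. Of its 353 UMIs in D, 341 (96.6%) were in uroplakin-positive cells, at 29.2 CPM (26.1 to 32.4) against 0.647 CPM (3 UMIs) in high-basal cells, a log2 ratio of 5.49 (3.93 to 7.78). In P it was at 44.6 CPM (29.4 to 64.8, 27 UMIs) in uroplakin-positive, 10.7 CPM (93 UMIs) in high-squamous and 0.543 CPM (3 UMIs) in high-basal cells. Per UMI counted, uroplakin-positive cells of D were thus not above those of P (−0.61, −1.18 to 0.01), although the D library held more Ly6g6c than P. A UMI of it was found in 4.76% of thinned uroplakin-positive cells of D and 5.38% of those of P (9.54% and 16.1% before thinning). Between uroplakin-positive and high-squamous cells, Ly6g6c gave 2.07 (1.39 to 2.70) in P and 3.72 (1.85 to 6.77, 2 UMIs in high-squamous cells) in D. It and Psca were the 2 of 6 genes at least 2-fold higher in this contrast in P (background 2.27%), although Psca, at 1.04, was below 2-fold with the median ratio set to 0 (0.92). In D it was 1 of 6 (background 2.87%), but it reached the minimum of UMIs through uroplakin-positive cells alone, so this count is no support.

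Whether the levels followed the markers gradually was examined in 5 bins of the squamous score, of which the first holds the cells at a score of 0, and in 4 classes of uroplakin UMIs per cell. The uroplakin classes rest on raw counts and select deeper cells. Their median depths were 3378, 4177.5, 4503 and 5696 UMIs in P and 2696, 3088.5, 3447 and 4616 UMIs in D. The part of depth in the levels of these classes was not tested. Psca in P went from 105 CPM in the first bin through 254, 237 and 1144 to 5962 CPM in the last, and in D from 538 through 782, 1030 and 1565 to 3548 CPM. Psca in cells with 0, 1, 2 to 3 and 4 or more uroplakin UMIs was at 1587, 4351, 9602 and 9054 CPM in P and at 421, 903, 1616 and 2942 CPM in D. The step in P was therefore steep at the top of the squamous score and level beyond 2 uroplakin UMIs, whereas in D each class was above the one before. Ly6g6c in D was at 0.807, 2.89, 5.91 and 36.8 CPM over the same uroplakin classes. Ly6a in P went from 560 through 809 and 1223 to 1420 CPM, while in D it stayed between 271 and 332 CPM. Lypd3 was highest at 1 uroplakin UMI in both libraries (162 CPM in P and 102 CPM in D).

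**Figure D5:**
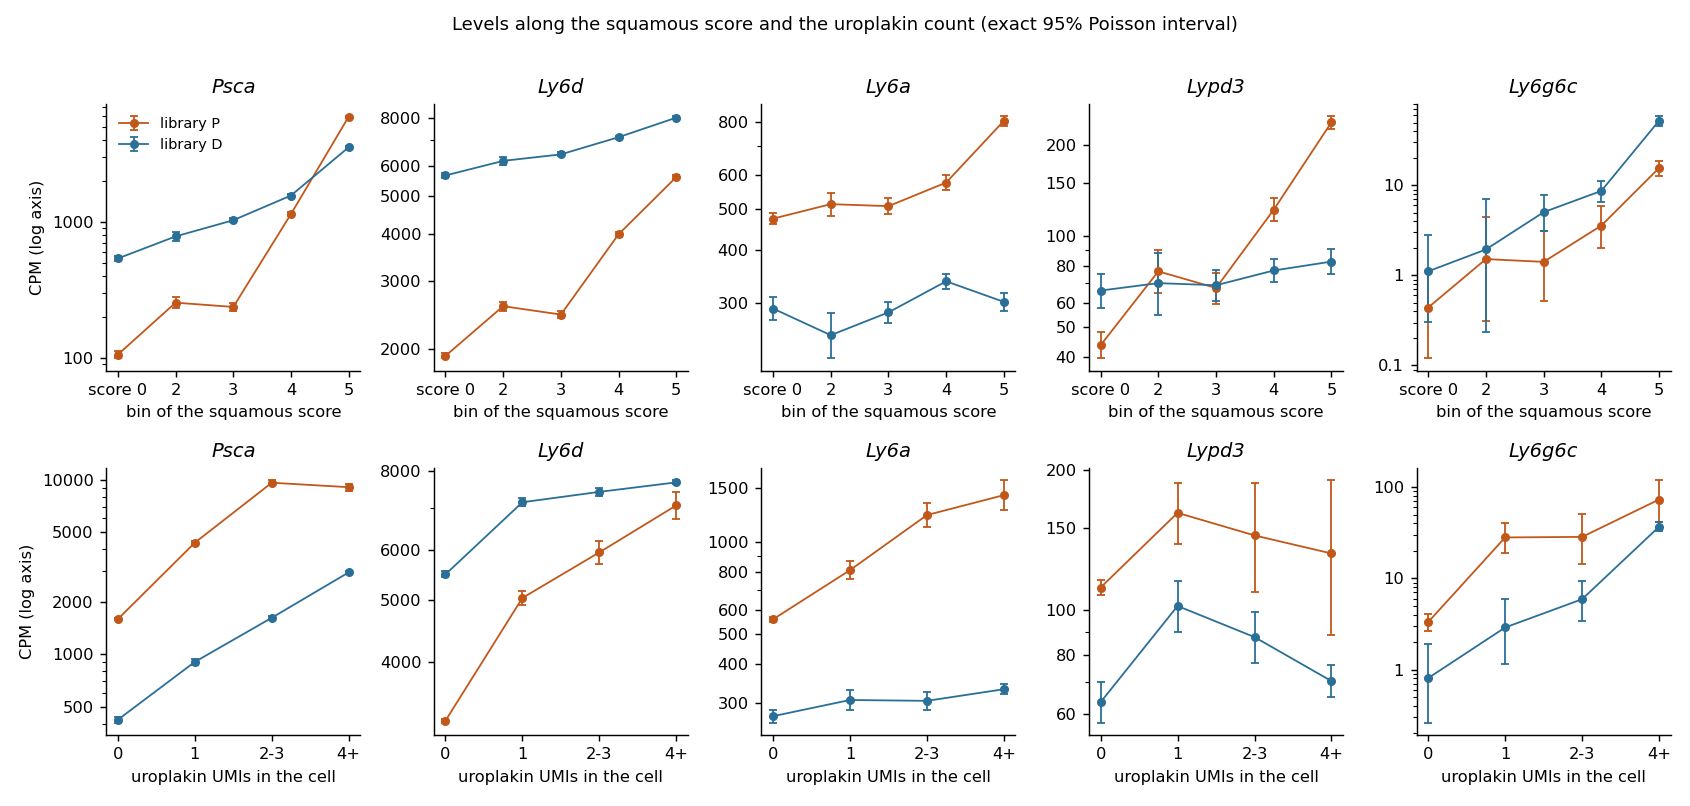
Levels of 5 genes (CPM, log axis, exact 95% Poisson intervals) over 5 bins of the squamous score (top) and 4 classes of uroplakin UMIs per cell (bottom) in P and D. Psca reaches 5962 CPM in the last squamous bin of P and 3548 CPM in that of D, and Ly6d in D lies above P in every bin and class.

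Cells were also split by both markers at once. In P, uroplakin-negative cells at or below the squamous cut had 213 CPM of Psca and those above it 4319 CPM (4278 to 4362), while the 14 uroplakin-positive cells at or below the cut had 2196 CPM (1855 to 2581) and the 79 above it 10300 CPM (10031 to 10574). In D the corresponding levels were 410, 1056 (1011 to 1102), 1606 (1567 to 1646) and 3132 CPM (3093 to 3172). Psca was thus higher with either marker and highest with both, in both libraries. For Ly6g6c in D the levels were 1.35, 1.54, 6.32 and 40.9 CPM, so most of its UMIs (316) were in cells with both. For Lypd3 in D they were 65.3, 105, 75.5 and 74.2 CPM, with the highest level in cells above the squamous cut that lacked uroplakins.

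In single cells thinned to 2100 UMIs, a mean of 2.54 of the 8 genes was detected in P and 2.63 in D. At least 4 were detected in 41.3% of high-squamous, 46.2% of uroplakin-positive and 6.03% of high-basal cells of P, and in 28.0%, 25.4% and 5.93% of those of D. Of cells with a Psca UMI, 29.2% (27.4 to 31.1%) also had a Lypd3 UMI in P, and of cells without 9.52% (8.65 to 10.4%). In D these shares were 14.0% (12.7 to 15.4%) and 10.7% (9.28 to 12.2%). For Ly6a the shares with and without a Psca UMI were 63.7% and 57.1% in P and 38.2% and 38.0% in D. Over the same cells, Spearman's rho of thinned counts between Psca and Ly6d was 0.53 in P (6638 cells) and 0.39 in D (4417 cells), while that between Psca and Lypd3 was 0.29 and 0.04. All cells of a library share its preparation, and these values are descriptions.

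The genes whose level was most like that of each abundant member were ranked by Pearson's r of log2(CPM + 1) over the 10 groups of library and state. For Psca these were Lmo7, Pdzk1ip1 and Gprc5a (each r = 0.99), for Ly6d Cadm4, Dhx32 and Alcam (each 0.98), and for Lypd3 4833423E24Rik (0.96), Muc15 and Tmem154 (each 0.95). For Ly6a they were 2700097O09Rik and Fam213a (each 0.98) and Hcfc1r1 (0.97). Ly6e, which varied least, had weaker matches in Aspa (0.88), Hmces and Cldn12 (each 0.86). Among the members themselves, Psca was closest to Lypd3 (0.84) and Ly6g6c (0.80), and Ly6a to Ly6c1 (0.71). Groups of the same library share its preparation and depth, so the 10 points were not independent.

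Beyond the 8 genes, 30 of 31 other genes of the Ly6 and uPAR domain family were found by symbol and 7 had at least 100 UMIs over both libraries. Of these, D exceeded P at least 2-fold for 2 genes (background 13.5%) and P exceeded D for another 2 (background 4.73%), and their median log2 ratio was 0.32 beside 0.41 over all 10719 genes. Both genes higher in D had under 100 UMIs in P and passed the minimum through D, so their count is no support. Plaur, the urokinase receptor, had 39 UMIs in P and 244 in D (log2 ratio 3.04, 2.55 to 3.57). Slurp1, a secreted member made by keratinocytes, had 354 and 105 UMIs (−1.36, −1.69 to −1.04), and in P was at 32.9 CPM in high-squamous and 0.724 CPM in high-basal cells. Pinlyp, an inhibitor of phospholipase A2, had 394 and 131 UMIs (−1.19, −1.49 to −0.91), at 30.3 and 3.26 CPM in the same states. Of 28 genes for the synthesis and attachment of GPI anchors, 26 had enough UMIs and 1 passed 2-fold in favour of D (Pigo, 42 and 85 UMIs, log2 ratio 1.41, background 13.5%, and just below 2-fold with the median ratio set to 0), with a median of 0.48. Pigt and Dpm2 followed at 0.91 and 0.89. Interferon is known to induce Ly6a and Ly6e in other cells. Of 20 interferon-induced genes, 15 had enough UMIs and their median log2 ratio of D over P was 0.18. Mx1 was at 3.03 (40 UMIs in P and 248 in D, past the minimum through D alone) and Ifitm3 at −1.80.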

How the data were processed

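Droplet single-cell RNA sequencing was done on 1 library of P and 1 of D organoids. According to the submitters' processing notes, reads were handled with bcl2fastq 2.19.0 and Cell Ranger 3.0.2 and aligned to GRCm38 (mm10). The authors deposited raw counts of UMIs per gene and barcode (8194 barcodes with 28921755 UMIs in P, 6975 with 22949953 in D), with no normalization. The members and gene lists used here were chosen with earlier results of these data known.

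Cells with over 800 genes and at most 12% mitochondrial UMIs were kept. A minimum that admits exactly 800 genes would keep 6826 cells in P and the same 4896 in D. Counts were summed over the cells of a library or state and divided by all their UMIs (CPM). Exact intervals came from the Poisson distribution for levels, from the Clopper-Pearson method for shares and from the conditional binomial distribution for ratios. A gene was counted as higher at 2-fold or more with at least 100 UMIs over both groups. Bins of the squamous score were planned as quantiles with 5 equal groups of cells, but cells tied at a score of 0 were kept together, so the bins are unequal. No doublet caller was run, and the 5% of cells with most UMIs were left out as an alternative. Genes were named by a rule that took the 8 members, the 3 genes of each list with the largest ratio and at least 100 UMIs, the 3 genes most like each member with at least 1000 UMIs, and the markers of the states. A gene that the rule named in the interferon list is not reported here. Positions came from GENCODE M21, which holds 30934 of the 31053 identifiers. The ratio and thinning steps were tested on simulated counts. Python 3.11.15, numpy 2.4.6, scipy 1.17.1, pandas 2.3.3 and matplotlib 3.10.9 were used.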

Additional observations from a re-analysis of the deposited data

Results flagged for a closer look

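Ly6d was present in the 2079 barcodes that the cell filter removed from D, at 3140 UMIs per 1000000 non-mitochondrial UMIs (3064 to 3217), against 7448 in the kept cells of D and 2175 in the 1376 barcodes removed from P. It was flagged because these barcodes enter no other comparison.

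Psca was flagged because its log2 ratio of D over P changed direction between states, at 1.32 in high-basal and 1.65 in low-for-both cells but −1.16 in high-for-both, −1.40 in high-squamous and −1.85 in uroplakin-positive cells. Ly6d was flagged because uroplakin-positive over high-squamous cells gave 0.25 in P and −0.13 in D. Ly6e was flagged because high-squamous over high-basal cells gave −0.44 in P and 0.28 in D. With 1 library per condition, none of these differences was tested.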

How the results depend on the processing

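Of 565 alternative log2 ratios of single members, 401 moved by less than the counting interval, 164 by more, and no called value changed sign. Among the uncalled D over P ratios, the median ratio set to 0 turned Ly6e over all cells (0.18 to −0.24) and in low-for-both cells (0.13 to −0.36) and Lypd3 in low-for-both cells (0.30 to −0.20). Leaving out mitochondrial and ribosomal protein genes turned the same 3 and Ly6e in uroplakin-positive cells (0.03 to −0.08), which also turned under the looser cell filter. No paired analysis was possible because each condition has 1 library.

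The counts of members past 2-fold moved as follows. Shares over all genes are given above for the main settings only. The changed counts therefore have no background beside them and show only how the calls depend on the settings. Higher in D over all cells, 2 genes became 1 with over 1000 genes and at most 10% mitochondrial UMIs, without mitochondrial and ribosomal protein genes, and with the median ratio set to 0. Lower in D, 1 gene became 2 without mitochondrial and ribosomal protein genes, and 3 with the median set to 0 or a fold of 1.5. In high-basal cells, 3 higher genes became 1 under both scalings, and 2 with over 1000 genes, with 1 uroplakin UMI, with both other score cuts and with the basal list without keratins. In low-for-both cells, 2 higher became 1 with the median set to 0, and 0 lower became 1 under both scalings, with 1 uroplakin UMI and with an upper-quartile score cut. In high-squamous cells, 2 lower became 4 at 3 uroplakin UMIs, and 3 under both scalings, with the looser cell filter, a mean over cells, 1 uroplakin UMI or without the deepest 5% of cells. Added lower calls can come from a gene that passes the minimum through P alone, so these counts are no support. At the main settings Ly6g6c had 93 UMIs in P and 2 in D in high-squamous cells, and Ly6c1 84 and 0 in low-for-both cells. With the upper-quartile cut Ly6a was at −0.71 in low-for-both cells, so the added call there was another gene. In D, 2 genes higher in high-squamous over high-basal cells became 1 with a mean over cells or 3 uroplakin UMIs.

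Shares of cells followed depth. Cells with a Psca UMI were 27.5%, 49.1% and 41.8% in P and 45.6%, 74.8% and 63.7% in D at 1000 UMIs, 3000 UMIs and without thinning, and 23.9% and 45.8% had at least 2 UMIs. Cells with a Lypd3 UMI, at the same 3 depths, were 16.8%, 37.6% and 45.6% of cells with a Psca UMI in P and 8.11%, 20.2% and 28.3% in D, and 5.20%, 15.4% and 13.8% of cells without in P and 5.82%, 15.8% and 13.3% in D.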
